A study of Homo sapiens with 3 samples.

Results

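Imprinted genes are expressed mainly from 1 parental copy, and the genes examined here were DLK1, MEG3, NNAT, H19, IGF2, CDKN1C, PEG3, PEG10, MEST and NDN. They were chosen from common knowledge of human imprinting, after DLK1, NNAT and CDKN1C had already shown large differences on these arrays, so their differences are given as descriptions and nothing is tested with them. The members are the probe sets whose only gene symbol is 1 of these 10. Of the 10 genes, 8 had such a probe set, with 24 probe sets in all, out of 19775 genes and 41091 single-symbol probe sets on the array. The probe sets for H19 also carry the symbol MIR675 and those for IGF2 also carry INS-IGF2, so these genes are described only through shared probe sets.

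Each of 3 groups was measured once, on 1 Affymetrix human array, from cultures derived from H9, a widely used line of human embryonic stem cells. The earliest group was neuroepithelial cells at day 17, a neural progenitor stage that received no morphogen. The other groups were astrocytes at day 210, specified between day 10 and day 21 with retinoic acid (RA), a caudalising signal, or with FGF8, a signal of rostral brain organisers. Growth began in all 3 with embryoid bodies after removal from mouse embryonic fibroblast feeders, all cells were of 1 line, and the labels name no purification of the astrocytes. With 1 array per group no difference has a replicate check, no test was possible, and age and morphogen treatment cannot be told apart in the comparisons with day 17.

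Imprinting is set by DNA methylation marks laid down in the egg or sperm and kept through development, and a regulatory region of this kind usually controls a cluster of neighbouring genes. Paternally expressed genes of this set include the growth factor IGF2, the membrane protein DLK1 and the zinc finger protein PEG3. Maternally expressed ones include the cell cycle inhibitor CDKN1C and the long noncoding RNAs H19 and MEG3. In the nervous system such genes are known for roles in progenitor growth, neuronal differentiation and the balance of quiescence and division.

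Astrocyte markers other than ALDH1L1 fitted the labels of the arrays. Of 8 astrocyte genes, GFAP and AQP4 among them, 8 lay above the floor on each astrocyte array, against 5 at day 17. ALDH1L1 lay not far above the floor on all 3 arrays, with 38.0 at day 17, 45.5 in RA and 43.4 in FGF8 astrocytes. The floor is a normalized signal of 26.4, the middle value over the non-control probe sets, and lower values were raised to it before differences were taken. All 8 mesenchymal markers lay above it in neuroepithelial cells, with a summed signal of 9432, against 2 in RA astrocytes (1003) and 3 in FGF8 astrocytes (6533, of which PDGFRA, also a glial progenitor gene, made 5998). COL1A1, COL3A1, LUM, DCN and POSTN were at the floor on both astrocyte arrays. Endoderm markers summed to 2833, 218 and 218 in the same order, with 4, 1 and 1 of 8 above the floor, and SOX17, FOXA1 and FOXA2 at it on all 3 arrays. Muscle markers summed to 3909, 453 and 248 (3, 4 and 3 of 6 above the floor, MYOG at it throughout). ACTC1 made 3598 of the day 17 muscle sum, while DES went from the floor at day 17 to 254 in RA and 78.0 in FGF8 astrocytes. Trophoblast markers summed to 672, 262 and 190 (5, 2 and 2 of 7 above the floor, CGA at it throughout). The ratio of 3' to 5' signal of ACTB, which climbs as RNA shortens, was 1.33 in neuroepithelial cells, 6.67 in RA astrocytes and 6.63 in FGF8 astrocytes. The same ratio of GAPDH differed less, with 0.984, 1.79 and 1.65 in that order. Pluripotency markers summed to 5814, 206 and 173 (3, 1 and 2 of 5 above the floor), with LIN28A and SALL4 at the floor on both astrocyte arrays and ZFP42 on all 3. LIN28A, also listed as a neuroepithelial marker, made 3584 of the day 17 sum. NANOG was at the floor at day 17 and in RA astrocytes, and just above it in FGF8 astrocytes (26.6). Neuroepithelial markers summed to 23240, 8694 and 11880 (8, 7 and 7 of 8). SOX2 alone made 6962, 7281 and 9242 of these sums. Neuronal markers summed to 16610, 14660 and 19820 (8, 7 and 6 of 8), with RBFOX3 at the floor on both astrocyte arrays. Between the astrocyte arrays the neuronal gene DCX was 11.6-fold, PDGFRA 7.56-fold and COL1A2 7.19-fold lower in RA, while the neuronal genes SYT1 and STMN2 were higher, by 5.09-fold and by a log2 difference of at least 2.54. These markers and ratios differ between the same arrays as the imprinted genes. Their part in the differences from day 17 and between the astrocyte cultures was not tested. In bulk RNA, fewer cells of a type and less RNA per cell cannot be told apart.

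Start regions were at hand for 4 of the 10 genes, from RefSeq on GRCh38.p14. The 250 bases before a start are printed for NDN, MEST and MEG3. Signals of NDN and MEST lay within 2-fold on all 3 arrays, and MEG3 lay at or near the floor. The start region of H19, a gene read only through shared probe sets, is not printed. None was at hand for DLK1, NNAT, CDKN1C, PEG3, PEG10 or IGF2. Of 5 listed starts of MEST and 3 of MEG3, the one shown had the most CG pairs among windows that held no other listed start. Capitals mark CG pairs, the target of DNA methylation.
NDN, chr15:23687306-23687555, minus strand: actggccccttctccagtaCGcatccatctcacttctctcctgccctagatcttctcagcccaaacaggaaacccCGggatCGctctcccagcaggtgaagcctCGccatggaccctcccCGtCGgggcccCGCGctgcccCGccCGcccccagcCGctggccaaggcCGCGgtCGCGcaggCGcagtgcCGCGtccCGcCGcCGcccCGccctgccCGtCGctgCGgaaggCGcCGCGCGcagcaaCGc
MEST, chr7:130491808-130492057, plus strand: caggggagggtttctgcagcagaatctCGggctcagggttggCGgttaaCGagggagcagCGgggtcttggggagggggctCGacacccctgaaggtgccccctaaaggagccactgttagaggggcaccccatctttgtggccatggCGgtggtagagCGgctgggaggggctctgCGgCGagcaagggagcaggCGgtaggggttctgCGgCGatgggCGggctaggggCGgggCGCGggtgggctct
MEG3, chr14:100825858-100826107, plus strand: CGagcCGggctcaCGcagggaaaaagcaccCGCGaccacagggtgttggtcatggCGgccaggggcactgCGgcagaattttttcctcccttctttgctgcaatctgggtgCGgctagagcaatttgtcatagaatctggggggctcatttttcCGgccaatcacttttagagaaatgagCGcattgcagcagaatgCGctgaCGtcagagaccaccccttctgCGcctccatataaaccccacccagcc
The NDN window held 30 CG pairs, a number reached by 12.4% of 35116 such windows, the MEST window 16 (41.0%) and the MEG3 window 13 (46.6%), against a median of 11. The H19 window, not printed, lay under that median with 4 CG pairs (70.7%). On both strands, GGGGCCCC, a core of the site bound by the imprinted factor PLAGL1, was found once in the NDN window and in 1.77% of all windows. The TATA box letters TATAAA were found once in the MEG3 window and in 10.7% of all windows. Neither GCCATNTT, a core of YY1 sites, nor GGNGGCAG, part of the CTCF motif, was in the windows shown, against 3.86% and 13.4% of all windows, while another MEST window, with 20 CG pairs, held the CTCF letters once. A match is a description of letters, and no match says only that they are not in this window.

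H19 is the host transcript of a microRNA, whose mature forms are shown because the H19 probe sets are annotated to both. Capitals mark the seed, bases 2 to 8.
hsa-miR-675-5p: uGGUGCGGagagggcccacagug
hsa-miR-675-3p: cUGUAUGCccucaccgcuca
The arrays measured the host RNA region and not these mature forms, whose seeds differ from each other.

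**Figure D1:**
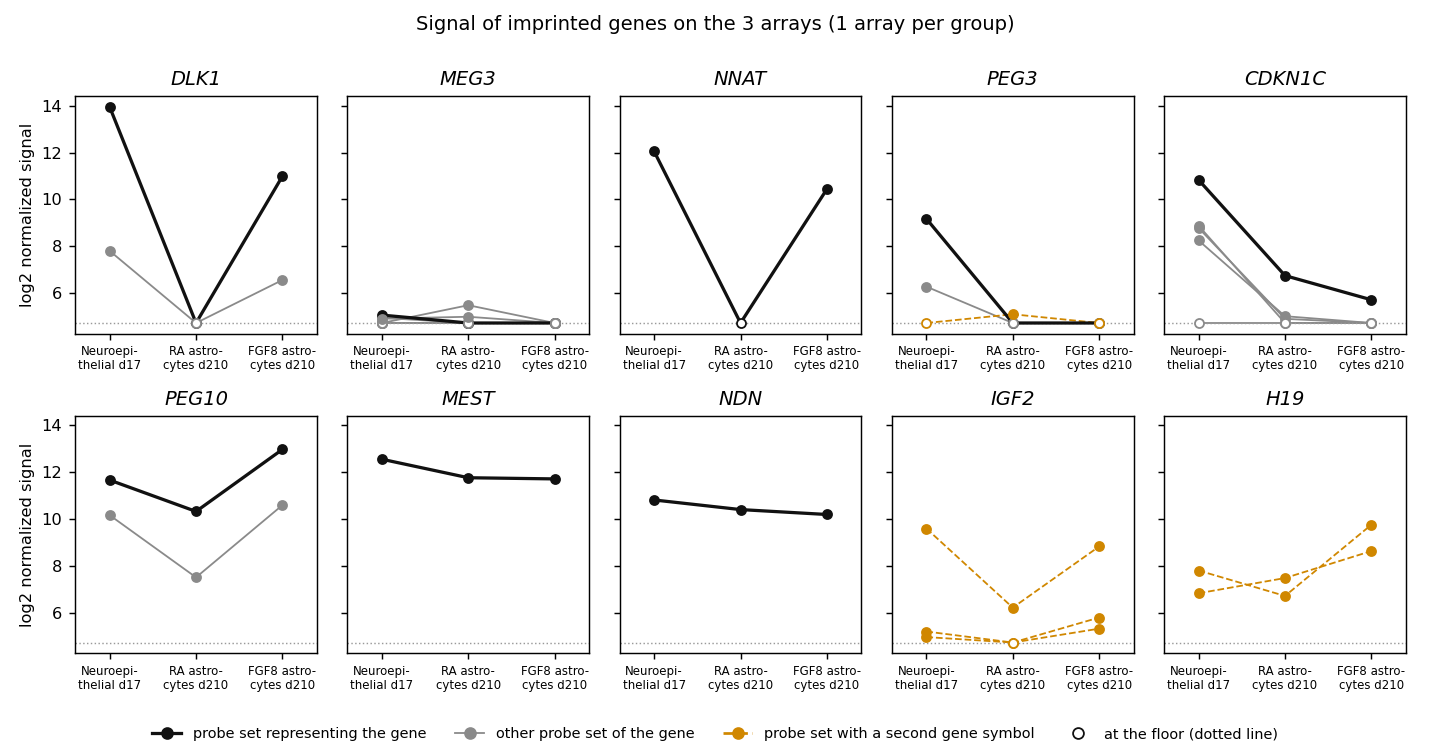
Log2 normalized signal (y axis) of every probe set of the 10 imprinted genes on the neuroepithelial, RA astrocyte and FGF8 astrocyte arrays (x axis), with 1 array per group. DLK1 and NNAT reach the floor only in RA astrocytes, and PEG3 by its own probe sets in both astrocyte arrays. The set that PEG3 shares with ZIM2 (dashed) is above the floor only in RA astrocytes. MEST and NDN stay above log2 10 on all 3 arrays.

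DLK1, a paternally expressed transmembrane relative of the Notch ligands that marks progenitors and immature endocrine and mesenchymal cells, was highest at day 17, intermediate in FGF8 astrocytes and at the floor in RA astrocytes. Its main probe set gave 15786 in neuroepithelial cells, 15.6 in RA astrocytes and 2029 in FGF8 astrocytes. Only the RA array was at the floor, and the FGF8 array kept a clear signal. DLK1 was thus at least 599-fold lower in RA astrocytes and 7.78-fold lower in FGF8 astrocytes than at day 17. It was at least 76.9-fold lower in RA than in FGF8 astrocytes. Between these astrocyte arrays DCX, PDGFRA and COL1A2 were also lower in RA, while SYT1 and STMN2 were higher. The part of such markers in the DLK1 difference was not tested. A second DLK1 probe set ordered the arrays alike, with signals of 223, 11.1 and 94.2. Its differences were smaller, at least 8.46-fold and 2.37-fold lower than at day 17. The dimmer probe set thus gave a far lower bound for the RA culture.

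NNAT encodes neuronatin, a small membrane proteolipid of developing brain, and is paternally expressed from inside an intron of BLCAP. Its single probe set read 4239 in neuroepithelial cells, 26.2 in RA astrocytes and 1386 in FGF8 astrocytes. The RA value was just under the floor of 26.4, while the FGF8 value stayed high. NNAT was at least 161-fold lower in RA astrocytes and 3.06-fold lower in FGF8 astrocytes than at day 17. Between the astrocyte arrays it was at least 52.6-fold lower in RA. BLCAP, the host gene, read 905, 818 and 734, so it differed by at most 1.23-fold between day 17 and either astrocyte array.

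PEG3, a paternally expressed zinc finger protein linked to growth and maternal behaviour, was above the floor only at day 17. Its main probe set read 578 in neuroepithelial cells, 15.1 in RA astrocytes and 0.414 in FGF8 astrocytes. A second probe set read 77.4, 0.408 and 12.4. Each astrocyte culture was at least 21.9-fold lower by the first and at least 2.94-fold lower by the second, and at the floor the astrocyte cultures could not be ordered. A probe set shared by PEG3 and ZIM2 went otherwise, at the floor at day 17 and 34.2 in RA astrocytes, at least 1.30-fold higher.

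CDKN1C, maternally expressed, encodes the cyclin-dependent kinase inhibitor p57, which holds cells out of division. Its main probe set read 1823 in neuroepithelial cells, 107 in RA astrocytes and 52.4 in FGF8 astrocytes. It was lower in both astrocyte cultures, by log2 differences of -4.09 in RA and -5.12 in FGF8 (34.8-fold). Of its 5 probe sets 4 were compared with day 17, and all 4 were at least 2-fold lower in each astrocyte culture. The fifth was at the floor on all 3 arrays. Between the astrocyte cultures the main set was 2.05-fold higher in RA, and the other compared sets gave at least 1.13-fold and at least 1.22-fold higher. That call ended with array medians set equal (0.98 on the log2 scale) and with the floor at the 70th percentile (0.17).

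PEG10, a paternally expressed gene derived from a retrotransposon and essential in placenta, took opposite sides of day 17. Its main probe set read 3244 in neuroepithelial cells, 1279 in RA astrocytes and 8051 in FGF8 astrocytes. The RA array was the lowest and the FGF8 array the highest. PEG10 was 2.54-fold lower in RA and 2.48-fold higher in FGF8 than at day 17, and 6.29-fold lower in RA than in FGF8 astrocytes. Its second probe set kept that order, with 1148, 182 and 1545, 6.32-fold lower in RA but 1.35-fold higher in FGF8 than at day 17. The main set's RA call ended with array medians set equal (-0.78 on the log2 scale), and the FGF8 call with the mean of both sets (0.87). SGCE, the neighbour on the other side of the shared start region, read 497, 572 and 877, within 2-fold in all 3 comparisons, though its FGF8 difference from day 17 reached 1.35 on the log2 scale with array medians set equal.

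MEST and NDN lay above the floor on all 3 arrays and within 2-fold in all 3 comparisons. MEST, a paternally expressed protein of the hydrolase fold found in embryonic mesoderm and brain, read 5993 in neuroepithelial cells, 3462 in RA astrocytes and 3349 in FGF8 astrocytes. It was 1.73-fold and 1.79-fold lower than at day 17, under the 2-fold size. NDN encodes necdin, a MAGE family protein that restrains neuronal precursor division and is lost in Prader-Willi syndrome. It read 1793, 1347 and 1172, or 1.33-fold and 1.53-fold lower than at day 17, and with array medians set equal its RA difference turned from -0.41 to 0.12 on the log2 scale. The astrocyte cultures differed by 0.05 for MEST and 0.20 for NDN on that scale.

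MEG3, the maternally expressed noncoding RNA next to DLK1, was at or near the floor throughout. Of its 10 probe sets 3 lay above the floor at day 17, 2 in RA astrocytes and 0 in FGF8 astrocytes. The main set read 33.3, 9.02 and 24.5, at least 1.26-fold lower in both astrocyte cultures. Another MEG3 set read 2.32, 44.7 and 13.5, so the sets gave different orders. Had the set been chosen after values were raised to the floor, this one would stand for MEG3, at least 1.69-fold higher in RA astrocytes than at day 17. No MEG3 set read above 44.7 on any array, and with the floor at the 30th percentile the main set's RA difference became -1.81 on the log2 scale.

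IGF2, the fetal growth factor, could be read only through 3 probe sets shared with the read-through transcript INS-IGF2. The brightest read 771 in neuroepithelial cells, 74.1 in RA astrocytes and 453 in FGF8 astrocytes. RA astrocytes were 10.4-fold lower than day 17 and 6.12-fold lower than FGF8 astrocytes, while FGF8 astrocytes were 1.70-fold lower than day 17. The dimmer sets, with 36.6 and 31.0 at day 17 and 55.3 and 39.8 in FGF8 astrocytes, were at the floor only in RA astrocytes and highest in FGF8 astrocytes. H19, the noncoding RNA that shares enhancers with IGF2, had 2 probe sets shared with MIR675, both of a type prone to cross-hybridise. One read 222, 105 and 863 and the other 113, 178 and 396. FGF8 astrocytes were the highest by each, 3.88-fold and 3.49-fold above day 17, while RA astrocytes were 2.12-fold lower by the first and 1.57-fold higher by the second.

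**Figure D2:**
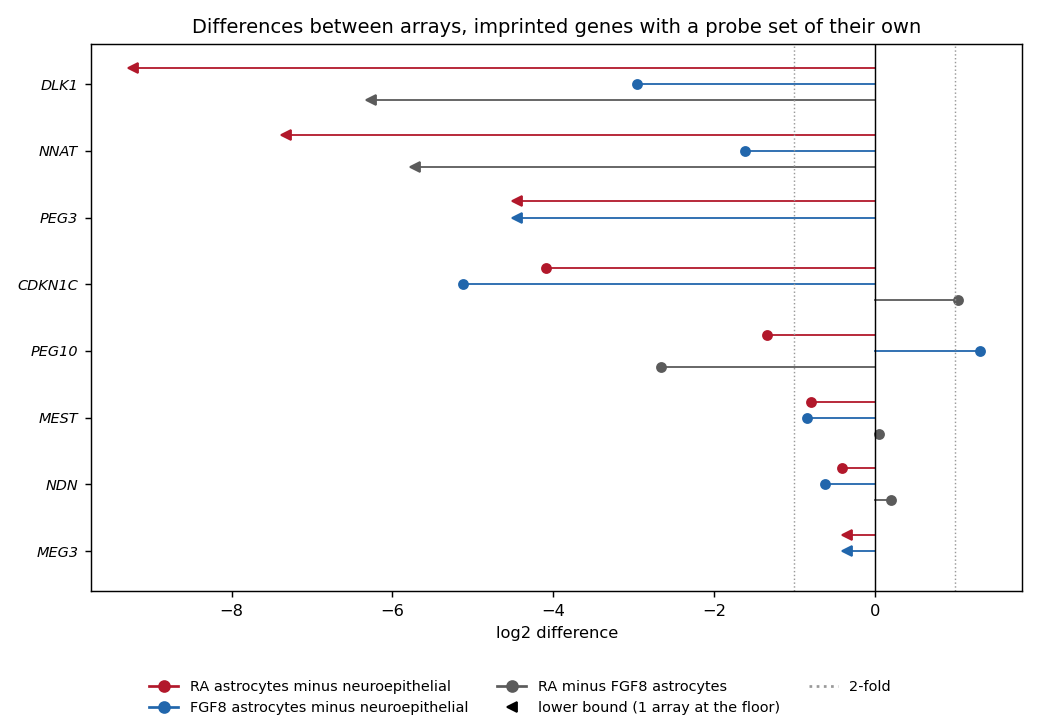
Log2 difference (x axis) in 3 comparisons for the 8 imprinted genes with a probe set of their own (y axis). Triangles are lower bounds because 1 array was at the floor, and dotted lines mark 2-fold. DLK1 and NNAT have the largest differences in RA astrocytes, and PEG10 lies on opposite sides of 0 in the astrocyte cultures.

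Counted by size, 5 of the 8 genes (DLK1, NNAT, PEG3, CDKN1C and PEG10) were called at least 2-fold lower in RA astrocytes than at day 17 and 0 higher. Over all 13339 genes compared, 14.6% were at least 2-fold lower and 18.1% higher. In FGF8 astrocytes 4 of 8 were lower (DLK1, NNAT, PEG3 and CDKN1C) and 1 was higher (PEG10), beside 10.2% lower and 12.8% higher of all 13004 genes compared. These comparisons share the day 17 array. Between RA and FGF8 astrocytes 6 genes could be compared, of which DLK1, NNAT and PEG10 were lower in RA and CDKN1C was higher, beside 7.86% lower and 9.69% higher of all 12958 genes compared. Because the genes were chosen with such differences known, nothing is read from the shares. With lower bounds taken at their value, the median log2 difference of the 8 genes was -2.71 in RA and -1.23 in FGF8 astrocytes against day 17, and -1.30 for the 6 genes between the astrocyte arrays, beside 0.07, 0.05 and 0.01 over all genes compared. The median between the astrocyte arrays became 0.048 when _x_at and _s_at sets, the less specific designs, were dropped, and with them the only set of NNAT. It took the same value when sets were chosen after the floor, since MEG3 then entered. The FGF8 median against day 17 became -0.67 with array medians set equal, -0.84 without _x_at and _s_at sets and -0.77 with several-symbol sets added.

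Genes with the most similar pair of differences from day 17 were sought among 13738 genes above the floor on at least 1 array, by Euclidean distance over the 2 log2 differences. For DLK1, NNAT, PEG3 and MEG3 at least 1 of these differences is a lower bound set by the floor, so no nearest genes are given. The 3 genes nearest to CDKN1C, which were SST, TPM2 and KRT8, each had a lower bound in FGF8 astrocytes, so their order is not given. Of the 3 nearest to PEG10, ARFGEF3 had a bound in RA astrocytes, and G0S2 (distance 0.09) and COBLL1 (0.14) were measured above the floor on all 3 arrays. MEST and NDN had 1247 and 1892 genes within a distance of 0.5, with STYXL1 and PDCD11 in first place, so their patterns were common ones. Each distance rests on 3 arrays.

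A wider set of 52 further imprinted genes had 44 on the array with a probe set of 1 symbol. In RA astrocytes 11 of 33 compared were at least 2-fold lower than at day 17 and 3 higher, with a median of -0.36, and 11 were at the floor on both arrays. In FGF8 astrocytes 10 of 30 were lower and 2 higher, with a median of -0.33. Between RA and FGF8 astrocytes 5 of 27 were higher in RA and 3 lower, with a median of -0.04. Several of these genes are neighbours of the 10 or act with them, and their shares stand beside those over all genes compared, given above. With array medians set equal the higher genes numbered 6 in RA and 5 in FGF8 astrocytes.

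Among regulators, PLAGL1, an imprinted zinc finger factor known to act on other imprinted genes, read 336 at day 17 and was at the floor in RA and in FGF8 astrocytes. It was at least 12.7-fold lower in both, and HYMAI, the noncoding RNA of the same locus, at least 2.24-fold lower. GRB10, an adaptor that restrains insulin and IGF receptors, read 1690, 982 and 1971 within 2-fold of day 17 in both, and was 2.01-fold lower in RA than in FGF8 astrocytes. DIRAS3, a growth-restraining small GTPase, was at the floor except in RA astrocytes (84.2), at least 3.20-fold higher there. NAP1L5, a nucleosome assembly protein relative, read 313, 1171 and 658, 3.75-fold and 2.10-fold higher than at day 17. INPP5F, an inositol phosphatase, was 5.42-fold and 4.39-fold lower. ZNF331, a zinc finger protein, was 3.27-fold lower in RA astrocytes and 1.07-fold lower in FGF8 astrocytes.

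Within the clusters, DIO3, the deiodinase at the far end of the DLK1 cluster on chromosome 14, read 255 at day 17 and was at the floor in both astrocyte cultures, at least 9.65-fold lower. In the chromosome 11 cluster of CDKN1C, the placental growth regulator PHLDA2 read 173, 77.9 and 7.96, 2.23-fold lower in RA and at least 6.58-fold lower in FGF8 astrocytes. Its RA difference became 0.95 on the log2 scale when _x_at and _s_at sets were dropped. OSBPL5, a lipid transfer protein of that cluster, read 83.4, 139 and 64.5, 2.16-fold higher in RA than in FGF8 astrocytes, but -0.057 on the log2 scale with the deposited values. KCNQ1OT1, the noncoding RNA that silences this cluster in cis, was at least 2.12-fold lower in both. Near NDN on chromosome 15, MAGEL2, another MAGE family gene, was 1.28-fold lower in RA and 3.30-fold lower in FGF8 astrocytes. ATP10A, a lipid flippase, was at the floor at day 17 and at least 3.88-fold and 5.98-fold higher. The ubiquitin ligase UBE3A differed by at most 1.41-fold from day 17. Near PEG10 on chromosome 7, the protease inhibitor TFPI2 read 458, 37.1 and 182, 12.4-fold lower in RA and 2.52-fold lower in FGF8 astrocytes, the latter -0.85 on the log2 scale with array medians set equal. COPG2, a coat protein gene next to MEST, was 2.31-fold and 2.35-fold lower, or -0.87 and -0.81 on the log2 scale with those medians equal. On chromosome 20, GNAS, the stimulatory G protein subunit, was 2.79-fold and 2.07-fold lower on its main probe set, but the mean of all its sets gave 0.58 and 0.61 higher on the log2 scale.

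**Figure D3:**
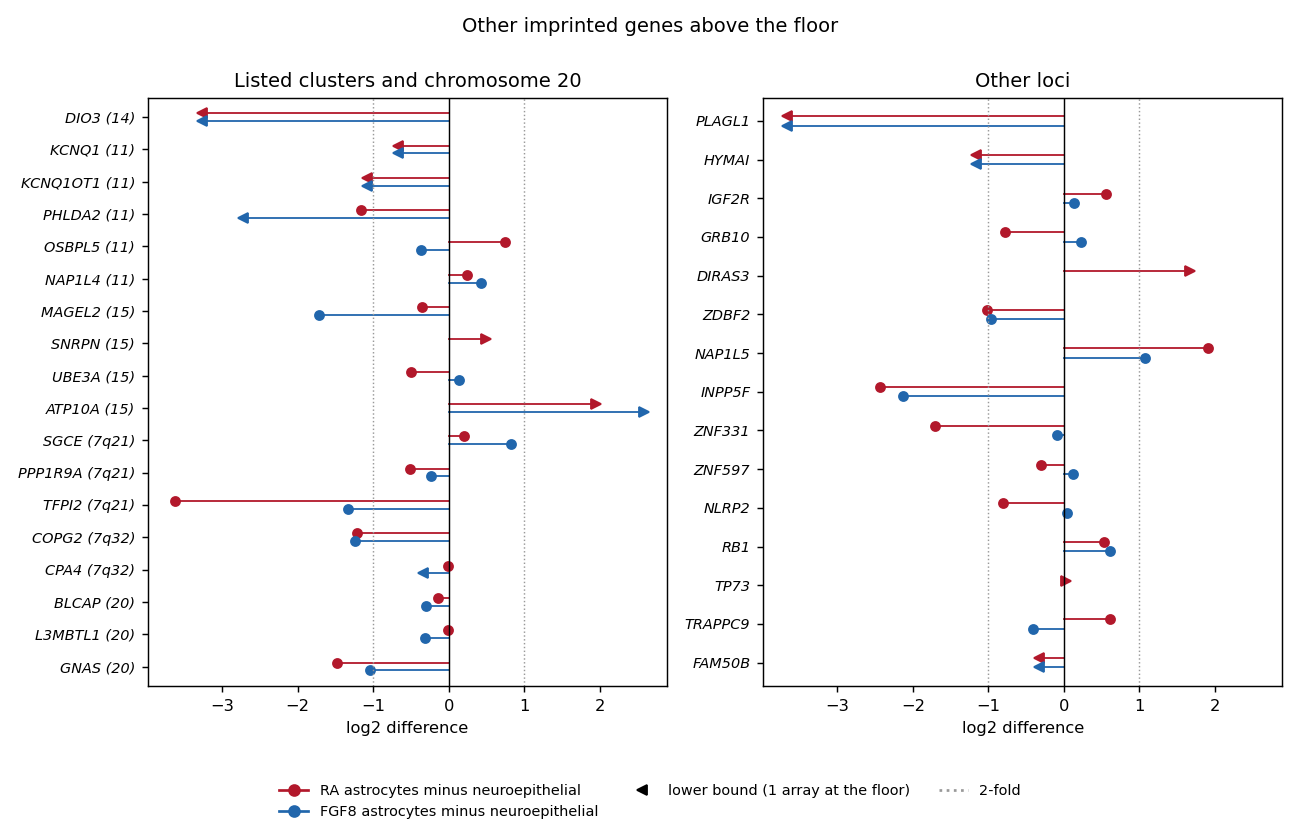
Log2 difference from neuroepithelial cells (x axis) of further imprinted genes above the floor on at least 1 array compared (y axis), for RA and FGF8 astrocytes. Numbers beside the gene names are chromosomes or bands, and triangles are lower bounds. In RA astrocytes PLAGL1, TFPI2, DIO3 and INPP5F lie farthest to the left, and ATP10A and NAP1L5 lie past 2-fold to the right in both.

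IGF2 acts through the receptor IGF1R and is cleared by IGF2R, while binding proteins hold it outside cells and IGF2BP proteins bind its mRNA. Of 14 such genes compared, 7 were at least 2-fold lower and 2 higher in RA astrocytes, beside 14.6% and 18.1% of all genes. In FGF8 astrocytes 6 were lower and 1 higher, beside 10.2% and 12.8%. The medians were -0.95 in RA and -0.94 in FGF8 astrocytes. Between RA and FGF8 astrocytes 3 were higher in RA and 3 lower, beside 9.69% and 7.86% of all genes. IGF2BP1 read 901 at day 17, 96.5 in RA and 1.61 in FGF8 astrocytes, 9.34-fold and at least 34.2-fold lower. IGF2BP3 was 6.77-fold and 2.69-fold lower (the latter -0.84 on the log2 scale with array medians set equal), and IGF2BP2 1.32-fold and 1.44-fold lower. IGF1R was 2.84-fold and 3.48-fold lower, while IGF2R was 1.47-fold and 1.10-fold higher. Of the insulin receptor substrates, IRS1 was 5.77-fold and 7.12-fold lower and IRS2, on an _s_at set, 6.60-fold and 3.92-fold higher. The higher genes of this list numbered 1 in RA and 0 in FGF8 astrocytes without _x_at and _s_at sets. In FGF8 astrocytes they numbered 2 with array medians set equal. IGFBP5 separated the astrocyte cultures, with 799 at day 17, 3885 in RA and 130 in FGF8 astrocytes. It was 4.87-fold higher in RA, 6.13-fold lower in FGF8, and 29.8-fold higher in RA than in FGF8. IGFBP7 went the other way between them, with 1131, 131 and 698, 5.35-fold lower in RA than in FGF8 astrocytes. IGFBP3 was 4.77-fold and 6.06-fold lower than at day 17.

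Genes that maintain imprints or DNA methylation were counted in the same way. Of 14 compared, 5 were at least 2-fold lower and 0 higher in RA astrocytes, beside 14.6% and 18.1% of all genes. In FGF8 astrocytes 3 were lower and 0 higher, beside 10.2% and 12.8%. The medians were -0.61 in RA and -0.13 in FGF8 astrocytes. With array medians set equal 3 and 1 were lower and 1 was higher in each, and the FGF8 median turned to 0.31. Without _x_at and _s_at sets 3 were lower in RA astrocytes. DNMT3B, a de novo methyltransferase, was 7.49-fold and 5.02-fold lower. UHRF1, which brings DNMT1 to replicated DNA, was 6.56-fold and 2.22-fold lower, and TET1, which oxidises methylcytosine, 5.56-fold and 2.29-fold lower. With those medians equal the FGF8 differences of UHRF1 and TET1 fell under 2-fold, at -0.56 and -0.68 on the log2 scale. DNMT3A, the other de novo enzyme, read 680, 283 and 559, lower by a log2 difference of -1.26 in RA astrocytes and 1.22-fold lower in FGF8 astrocytes, and DNMT1, the maintenance enzyme, 2.27-fold and 1.24-fold lower. For both, the RA call ended and the FGF8 direction turned (0.26 and 0.27) with those medians equal. TRIM28, the corepressor recruited to imprints, read 1739, 1024 and 1017, within 2-fold, and ZNF445, a zinc finger protein that binds imprints, was 1.34-fold and 1.11-fold lower. ZFP57, another such protein, and DNMT3L lay at the floor on all 3 arrays.

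**Figure D4:**
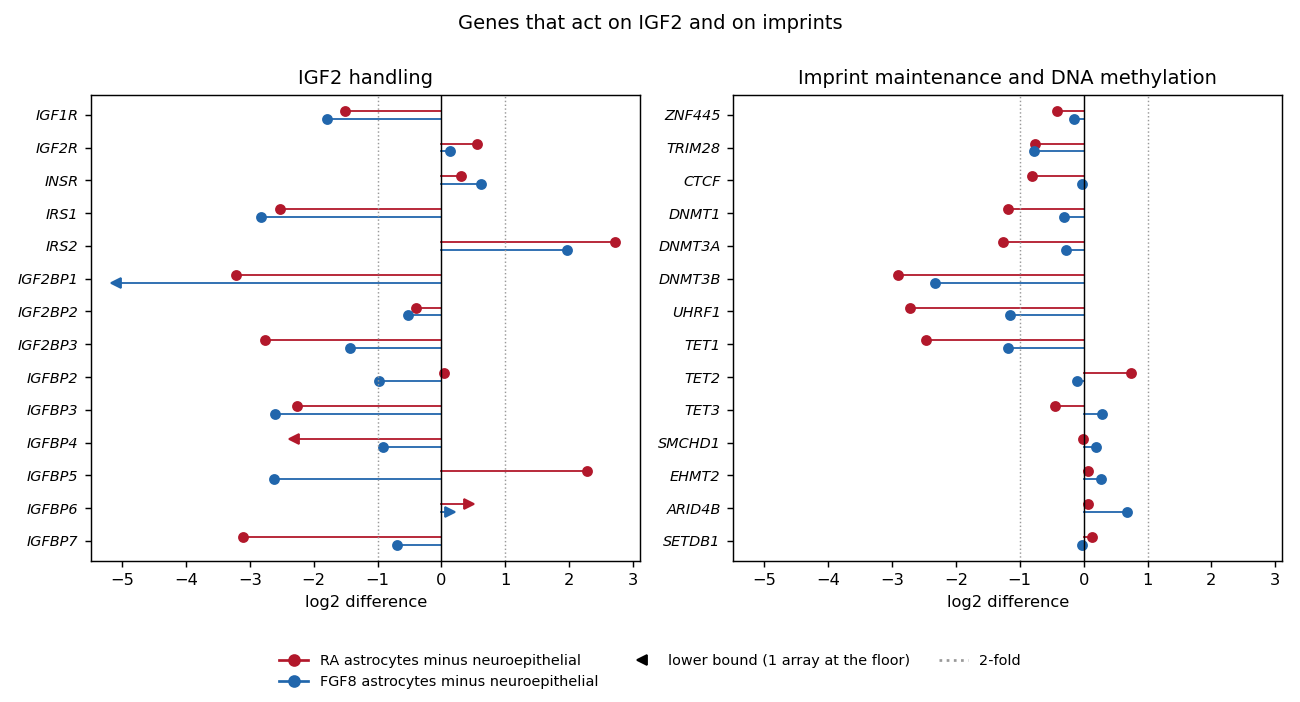
Log2 difference from neuroepithelial cells (x axis) of genes that handle IGF2 (left) and genes of imprint maintenance and DNA methylation (right), for RA and FGF8 astrocytes, with triangles as lower bounds. IGF2BP1, IGF2BP3, DNMT3B, UHRF1 and TET1 lie past 2-fold to the left in both cultures, and IGFBP5 lies on opposite sides of 0.

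Relatives of single members were counted in the same way, and several of their counts lay near the shares over all genes. In the DLK1 and Notch list 2 of 12 (16.7%) were at least 2-fold lower and 2 higher (16.7%) in RA astrocytes, beside 14.6% and 18.1% of all genes. In FGF8 astrocytes 3 of 11 were lower and 0 higher, beside 10.2% and 12.8% of all genes. The medians were -0.25 in RA and -0.61 in FGF8 astrocytes. With the deposited values 4 were lower in RA, the RA median turned to 0.23 with array medians set equal, and the FGF8 median became -1.04 without _x_at and _s_at sets. DLK2, the closest relative of DLK1, read 68.6, 85.1 and 77.3, within 2-fold throughout. The Notch effector HES5 was 40.2-fold and 13.1-fold lower, and HEY1 14.9-fold and 1.85-fold lower. The receptor NOTCH3 was 2.77-fold higher in RA and 1.26-fold higher in FGF8 astrocytes, and 2.20-fold higher in RA than in FGF8, the last turning to -0.30 on the log2 scale with the mean of all its sets. NOTCH1 was 2.09-fold and 1.94-fold higher, but -0.60 and -0.30 on the log2 scale with the mean of all its sets.

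Of the other CDK inhibitors compared, 2 of 6 were lower and 1 higher in RA astrocytes, beside 14.6% and 18.1% of all genes. In FGF8 astrocytes 1 of 5 was lower and 1 higher, beside 10.2% and 12.8%. The medians were -0.14 in RA and -0.61 in FGF8 astrocytes. The RA median turned to 0.17 with array medians set equal and became -1.47 without _x_at and _s_at sets, and the FGF8 median turned to 0.19 with the mean of all sets and to 0.0008 with a lower floor or none. CDKN1A, which encodes p21, was 3.24-fold and 2.34-fold higher on an _s_at set, and without such sets 0 inhibitors were higher in either culture. CDKN1B, which encodes p27, read 2250, 2160 and 3438 and lay within 2-fold, though its FGF8 difference reached 1.13 on the log2 scale with array medians set equal. CDKN2B was at least 7.36-fold lower in RA and 3.50-fold lower in FGF8 astrocytes, though -0.66 on the log2 scale in both with the mean of its sets. CDKN3 was 12.8-fold and 1.91-fold lower.

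Of 10 MAGE and retrotransposon-derived relatives of NDN and PEG10 compared, 0 were lower in either culture, beside 14.6% in RA and 10.2% in FGF8 of all genes. In RA astrocytes 2 were higher and in FGF8 astrocytes 1, beside 18.1% and 12.8% of all genes. The higher genes numbered 1 in RA with the floor at the 70th percentile and without _x_at and _s_at sets, and in FGF8 astrocytes 3 with array medians set equal and 0 without those sets. The medians of 0.13 and 0.008 became -0.010 and -0.05 with several-symbol sets added. RTL8C was 3.18-fold and 2.77-fold higher on an _x_at set, and RTL5 2.83-fold and 1.97-fold higher. The necdin relative MAGED1 read 4554, 3686 and 3339, within 2-fold.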

How the data were processed

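RNA from 3 H9 cultures was hybridised to 1 Affymetrix array each, labelled with biotin by an array consortium, per the labels' protocols. The deposited values are a linear intensity for each of 54675 probe sets, with a mean of 150.02 on each array once 2% of probe sets were trimmed at each end. How these signals were summarised was not given in the sources used here. Non-control probe sets (54613) were quantile-normalized across the arrays (their 75th percentiles differed by 0.142 log2 units), raised to a floor at their median (26.4, log2 4.72) and brought to log2. Names came from an older platform annotation, in which the gene identifiers of 41043 probe sets matched a GRCh38.p14 table and 0 symbols were updated. Probe sets with several symbols (1801) or none (11721) were left out, apart from those described for IGF2, H19 and PEG3. Each gene was read from its probe set with the highest mean log2 signal before values were raised to the floor, without the cross-hybridising _x_at type where another existed. Choosing the set after the floor was an alternative added after seeing the data. Where 1 array was at the floor a difference is a lower bound, and where both were, none is given. Higher or lower means at least 2-fold. Members and lists were chosen with earlier results of these data known. Named were all 10 genes, from each list up to 4 genes per direction with the largest differences and examples within 2-fold, and genes among the 3 nearest in pattern, with distances only where no difference is a bound. HYMAI, KCNQ1OT1, COPG2, GNAS, IGF1R and DNMT1 fall outside that rule and were chosen after their values were seen. The functions were tested on simulated data. Python 3.11.15, numpy 2.4.6, pandas 2.3.3 and matplotlib 3.10.9 were used. The number of arrays limits the precision. Alternatives covered scaling, floor, probe set and size.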

Additional observations from a re-analysis of the deposited data

Results flagged for a closer look

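PEG10 stood out because the astrocyte cultures lay on opposite sides of the same neuroepithelial array, each past 2-fold on its main probe set. Its log2 difference from day 17 was -1.34 in RA astrocytes and 1.31 in FGF8 astrocytes. The difference between these effects was not tested, since each rests on 1 array. In FGF8 astrocytes the second probe set gave 0.43 and the mean of both sets 0.87. In RA astrocytes the main set gave -0.78 with array medians set equal.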

How the results depend on the processing

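Of 188 values of the 8 imprinted genes under alternatives, 179 kept their direction and side of 2-fold. Of the others 4 fell under 2-fold, 2 came past it, 1 called value reversed and 2 smaller values changed sign. The smaller ones were NDN, and MEG3 in RA at 0.76 with the set chosen after the floor. Values that an alternative left missing were not counted, here or for the other genes. Among them were NNAT without _s_at sets and CDKN1C between the astrocyte arrays with a mean over probe sets. The reversal was PEG3 in RA astrocytes, at 0.37 once probe sets with several symbols were added, where the set shared with ZIM2 has the highest mean before the floor. With the set chosen after the floor, but without several-symbol sets, PEG3 kept -4.45. Imprinted genes at least 2-fold higher in RA than in FGF8 astrocytes numbered 1 as reported, 2 with no floor, and 0 with array medians set equal, the floor at the 70th percentile, a mean over probe sets or a size of 4-fold. Those higher in FGF8 astrocytes than at day 17 numbered 1 as reported, 2 with several-symbol sets, and 0 with a mean over probe sets or at 4-fold. With several-symbol sets, those lower in RA than in FGF8 astrocytes numbered 5 in place of 3, as IGF2 and H19 entered. Choosing sets after the floor or dropping _x_at and _s_at sets turned the median between astrocyte arrays to 0.048, and the latter turned OSBPL5 between them to -0.010 and PHLDA2 in RA to 0.95. OSBPL5 was 1.11 as reported, -0.057 with deposited values and -0.11 with equal medians. GNAS became 0.58 in RA and 0.61 in FGF8 astrocytes with a mean over its sets, NOTCH1 -0.60 in RA, and NOTCH3 between the astrocyte cultures -0.30. The cause of these changes was not tested. Equal array medians shifted the middle of all genes against day 17, to 0.35 in RA and 0.42 in FGF8 astrocytes. Under that scaling NNAT in FGF8 astrocytes stayed just past 2-fold, at -1.01. Across alternatives DLK1 in RA astrocytes ranged from -9.98 to -3.08, the latter without _s_at sets, where NNAT has no value. Of the other genes' values, 1957 kept direction and side, 45 fell under 2-fold, 57 came past it, 81 small values changed sign and 8 called values reversed. The 52 further imprinted genes gave 7 to 17 lower in RA astrocytes over floors, against 11. No paired analysis was possible because each group has 1 array. Signal near the floor limits MEG3, PEG3 and every lower bound.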
